A study of Mus musculus with 14 samples.

Results

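Cathepsins are the proteases that degrade proteins delivered to the lysosome by endocytosis, phagocytosis and autophagy. They are made as inactive precursors, are tagged with mannose 6-phosphate and carried to the lysosome by sorting receptors, and are activated there at acidic pH. Most are papain-like cysteine proteases, cathepsin D is an aspartic protease and cathepsin A is a serine carboxypeptidase, and in the brain microglia are known as a rich source of several of them. The transcripts of 10 cathepsin genes (Ctsa, Ctsb, Ctsc, Ctsd, Ctsf, Ctsh, Ctsk, Ctsl, Ctss and Ctsz) are described here, taken by gene name from the 43346 genes of the count table, and all 10 were found and passed the filter on low counts in each comparison.

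RNA was sequenced from a brain section with hippocampus and cortex of 14 female mice aged 23 months on a C57BL/6;SJL-Tg background. The NTG group held 4 non-transgenic littermates. Another 10 mice carried APP and PS1 genes with familial Alzheimer's disease mutations (genotype label APP/PS1 +/+), which lead to amyloid plaques, and 5 of these had received CP2, an inhibitor of mitochondrial complex I. The compound was in the drinking water with 0.1% PEG, at a dose of 25 mg/kg/day for 14 months starting when the mice were 9 months old. The labels call the NTG mice and the APP/PS1 mice without CP2 non-treated, whereas the methods describe water with 0.1% PEG, so they are called vehicle-treated here. The promoters of the transgenes are not given in the sources used here, and NTG mice given CP2 were not used here. In bulk tissue more cells of a type and more RNA per cell cannot be told apart.

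Libraries had between 70548781 and 106235625 counts, so even the least abundant member, Ctsk, had at least 128 counts in every mouse. No 2 mice of a group had identical counts in 26 pairs compared, each column is a separate mouse, and p-values measure the spread between mice. Markers of neurons summed to between 3686 and 4641 counts scaled to the library size (CPM) in every mouse, and markers of microglia, astrocytes and oligodendrocytes were all detected, so the markers fit the label brain. APP/PS1 mouse 16 stood apart, with 7 striatum markers summing to 1522 CPM against 106 to 203 CPM in the other 13 mice, and results that moved without it are given both ways. Markers of choroid plexus also varied within groups. They summed to 17.4 to 928 CPM in NTG, 9.93 to 1325 CPM in APP/PS1 and 180 to 727 CPM in CP2-treated APP/PS1 mice. Mouse App transcripts did not differ detectably between APP/PS1 and NTG mice (log2 fold change 0.03, SE 0.05, adjusted p = 0.799 in edgeR's quasi-likelihood test), and the human transgenes were not measured separately.

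In the mm10 coordinates of the files, the exopeptidases Ctsa (chr2:164832873-164841032, plus strand) and Ctsz (chr2:174427493-174439039, minus strand) lie on chromosome 2. Ctsk (chr3:95499286-95509362) and Ctss (chr3:95526786-95556403) are neighbours on the plus strand of chromosome 3 with 17423 bases between them. Ctsc (chr7:88278085-88310888, plus) and Ctsd (chr7:142371148-142388038, minus) are on chromosome 7, Ctsh (chr9:90054152-90076089, plus) on chromosome 9, Ctsl (chr13:64363214-64370306, minus) on chromosome 13, Ctsb (chr14:63122462-63145919, plus) on chromosome 14 and Ctsf (chr19:4855129-4860912, plus) on chromosome 19. The library kit did not keep strand and a read was counted on each gene it overlapped, so reads in exons shared with a neighbour cannot be assigned. In GENCODE vM21, Ctsb shared 774 exon bases with Fdft1, Ctsa 495 with Pltp and 324 with Neurl2, and Ctsz 10 with Nelfcd, all on the opposite strand, and Ctsd shared 808 with Gm49369 on the same strand, a gene not used here.

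Promoter sequence was read for the members as a description. Whether matches go with the rise of most members in APP/PS1 mice was not tested. RefSeq windows (GRCm38.p6, 250 bases before to 50 after the start) matched 8 of the 10 genes. The E-box CACGTG, the core of the element bound by TFEB, TFE3 and MITF, regulators of lysosomal genes, was in the windows of Ctsa, Ctsd, Ctsf and Ctsl, 4 of 8 members, against 8.09% of all 27025 genes with a window. GAGGAAGT, an ETS-type motif of the kind bound by the myeloid factor PU.1, was searched on both strands and was in the windows of Ctsc and Ctss, against 3.69% of all genes, and no member window held both motifs. Matches are descriptions of these letters and were not tested as binding sites. The stretches below lie before the annotated exons and show a match in 2 genes that rose (Ctsd and Ctsc), the match in Ctsf, which did not pass the test, and the neighbours Ctss and Ctsk, of which Ctss rose and Ctsk did not pass. Capitals mark the motif, sequences read 5′ to 3′ on the gene's strand, and the stretches of Ctss and Ctsk hold neither motif in full.
Ctsd (chr7:142388039-142388077, minus, E-box 245 bases before the start): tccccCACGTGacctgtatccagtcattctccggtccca
Ctsf (chr19:4855029-4855128, plus, E-box 79 bases before the start): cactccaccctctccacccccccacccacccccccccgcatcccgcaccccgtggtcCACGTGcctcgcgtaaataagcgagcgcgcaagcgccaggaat
Ctsc (chr7:88277884-88277983, plus, ETS motif on the other strand, 151 bases before the start): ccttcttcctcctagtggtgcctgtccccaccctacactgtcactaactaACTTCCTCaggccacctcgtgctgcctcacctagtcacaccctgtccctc
Ctss (chr3:95526686-95526785, plus): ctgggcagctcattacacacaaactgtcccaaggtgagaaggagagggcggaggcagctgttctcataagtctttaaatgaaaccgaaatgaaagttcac
Ctsk (chr3:95499110-95499209, plus): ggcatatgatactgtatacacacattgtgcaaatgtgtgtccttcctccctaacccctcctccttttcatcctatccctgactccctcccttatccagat
The Ctss match began 2 bases before its start, so that the stretch printed holds only its beginning, and the first Ctsl and Ctsa matches 236 and 12 bases before theirs. Ctsa had 2 windows, and its match lay only in the one inside the gene (chr2:164833523-164833822). The Ctsa window at the gene start given above (chr2:164832622-164832921) held no E-box. Ctsd had another E-box 98 bases before its start. Starts here are those of the RefSeq windows. That of Ctsd lies inside the gene coordinates given above (chr7:142371148-142388038), and so does this other E-box, while the printed one lies outside them. The Ctsl match lies outside the gene coordinates given above but inside the gene of GENCODE vM21, which reaches base 64370890.

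Levels of different genes were compared as RPKM, reads scaled to library size and to the gene length given with the counts. These lengths depend on the gene model, and the order of genes and their shares rest on them. Ctsl was given 1971 bases and Ctsf 1975, against 6489 and 5041 exon bases in GENCODE vM21. In NTG mice Ctsd had the highest RPKM (119 ± 8.19, mean ± SD, n = 4), followed by Ctsb (95.5 ± 3.07), Ctss (44.0 ± 2.216) and Ctsl (30.0 ± 2.228), and the ranges of these 4 genes did not overlap with each other or with the next gene. Ctsf (22.9 ± 2.38), Ctsz (18.7 ± 1.49) and Ctsa (16.5 ± 0.864) overlapped with their neighbours in this order. Ctsh (1.48 ± 0.224), Ctsk (1.19 ± 0.181) and Ctsc (1.15 ± 0.221) were at least 10 times lower than Ctsa by their means and overlapped as well. In APP/PS1 mice Ctsd was again highest (356 ± 68.8, n = 5), Ctss (147 ± 30.0) had passed Ctsb (139 ± 12.7) by its mean, with overlapping ranges, and Ctsz (56.0 ± 9.12) stood above Ctsl (50.01 ± 7.58), also with overlap. Ctsf, above Ctsz and Ctsa by its mean in NTG mice, was below both in APP/PS1 mice at 22.9 ± 1.47 RPKM, and Ctsc (2.73 ± 0.563) moved above Ctsk (1.26 ± 0.126) without overlap. The RPKM of the 10 genes summed to 350 ± 17.8 in NTG, 807 ± 127 in APP/PS1 and 678 ± 129 in CP2-treated APP/PS1 mice.

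**Figure D1:**
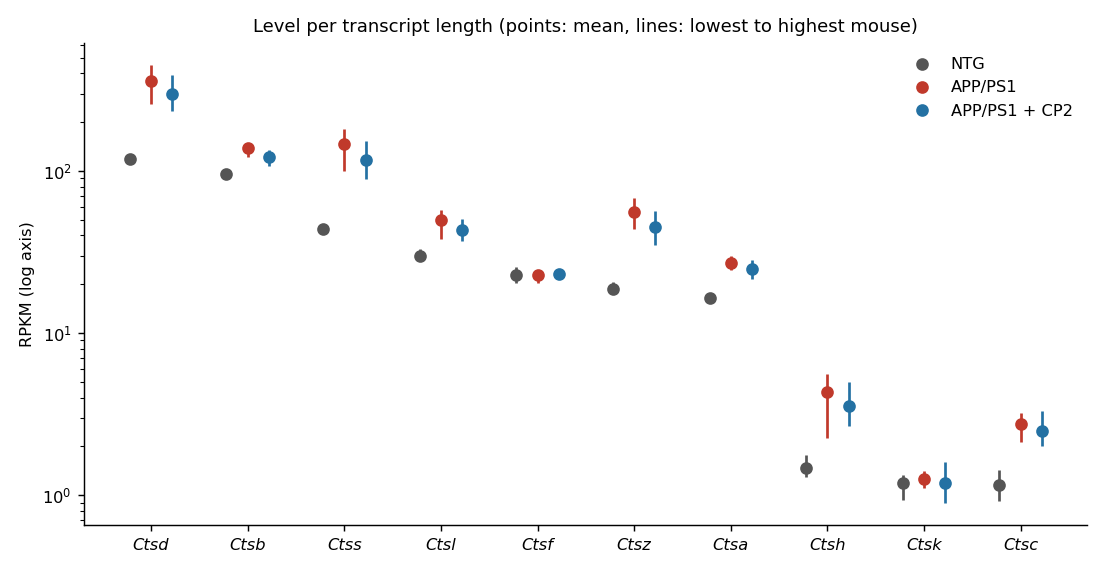
RPKM of the 10 cathepsins on a log axis, ordered by their mean in NTG mice, with points for group means and lines from the lowest to the highest mouse (4 NTG, 5 APP/PS1 and 5 CP2-treated APP/PS1 mice). Ctsd is highest in all 3 groups, and Ctsf and Ctsk have nearly the same mean in each.

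The make-up of the summed RPKM also differed between NTG and APP/PS1 mice. Ctsb, a cysteine protease that cuts inside proteins and also trims dipeptides from their ends, made up 27.3% ± 0.793 of the summed RPKM in NTG and 17.4% ± 1.70 in APP/PS1 mice. The share of Ctsd was 33.9% ± 0.668 in NTG and 44.0% ± 1.95 in APP/PS1 mice, that of Ctss was 12.6% ± 0.517 and 18.1% ± 1.08, and the ranges of both shares did not overlap between these groups. Ctsf made up 6.52% ± 0.368 and 2.88% ± 0.294 of the sum, while the ranges of its own RPKM overlapped. Within a mouse, Ctsd counts were 0.633 to 0.692 times those of Ctsb in NTG, 1.14 to 1.63 times in APP/PS1 and 1.05 to 1.55 times in CP2-treated APP/PS1 mice. Shares and ratios are descriptions and were not tested.

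The comparison of APP/PS1 with NTG mice asks how the amyloid model differs from its littermates at this age. Transcripts of 8 of the 10 cathepsins were higher in APP/PS1 mice at an adjusted p under 0.05 (edgeR's quasi-likelihood test, Benjamini-Hochberg adjustment over 16417 genes), and 4.34% of all genes tested were called higher. The same 8 genes, Ctss, Ctsd, Ctsz, Ctsh, Ctsc, Ctsl, Ctsa and Ctsb, had no overlap between the groups, as did 6.13% of all genes in this direction. The median log2 fold change of the 10 members was 0.93 against -0.0042 over all genes tested. Ctsf and Ctsk did not pass the test. Without mouse 16 the count was again 8, with 6.62% of all genes called higher, and it was 8 in every alternative and with any other mouse left out.

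**Figure D2:**
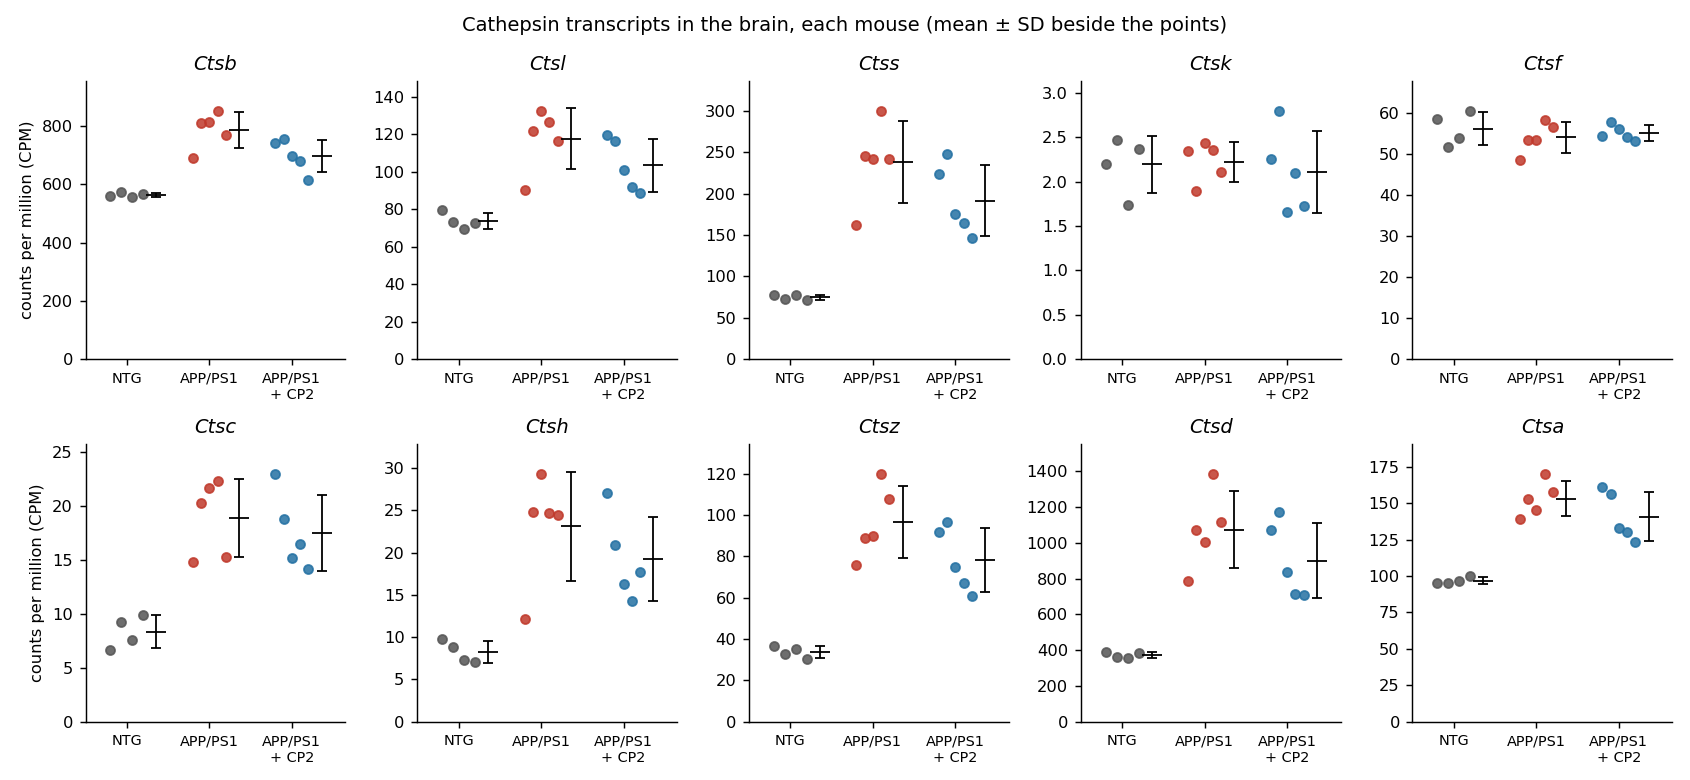
CPM of each cathepsin in each mouse, in 10 panels whose axes start at 0, with the mean and SD of each group beside its points (4 NTG, 5 APP/PS1 and 5 CP2-treated APP/PS1 mice). In 8 panels all NTG points lie below all points of the other groups, and in the panels of Ctsk and Ctsf the 3 groups overlap.

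Among the cysteine endopeptidases, Ctss differed most. Cathepsin S is made by microglia and other antigen-presenting cells and removes the invariant chain from MHC class II molecules. Ctss was at 77.4, 72.0, 76.8 and 71.9 CPM in NTG mice 7 to 10 and at 162, 245, 241, 300 and 242 CPM in APP/PS1 mice 16 to 20. The lowest APP/PS1 value, in mouse 16, was more than 2 times the highest NTG value. The fitted difference was 3.20-fold (log2 fold change 1.68, SE 0.15, adjusted p = 0.000202). Cathepsin L, an endopeptidase of broad specificity that is found in most cells, was encoded at 79.6, 72.9, 69.3 and 72.8 CPM in NTG and 90.3, 122, 132, 127 and 117 CPM in APP/PS1 mice. The groups did not overlap, with mouse 16 nearest to the NTG mice, and Ctsl was 1.60-fold higher (log2 fold change 0.68, SE 0.10, adjusted p = 0.00344). Ctsb was at 559, 574, 556 and 566 CPM in NTG and 690, 810, 815, 852 and 769 CPM in APP/PS1 mice. It had the narrowest NTG spread (coefficient of variation 1.43%), did not overlap between groups and was 1.40-fold higher, the smallest of the 8 differences (log2 fold change 0.48, SE 0.06, adjusted p = 0.00161). Fdft1, which shares exon bases with Ctsb, had a log2 fold change of 0.32 (SE 0.08, adjusted p = 0.0576).

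The 3 exopeptidases of the cysteine class rose as well. Cathepsin Z, a carboxypeptidase, was encoded at 36.6, 32.7, 35.0 and 30.3 CPM in NTG and at 75.8, 89.1, 90.0, 120 and 108 CPM in APP/PS1 mice, with every APP/PS1 mouse above 2 times the highest NTG mouse. Ctsz was 2.87-fold higher (log2 fold change 1.52, SE 0.13, adjusted p = 0.000171), the smallest adjusted p of the 10 genes. Cathepsin H is an aminopeptidase, and Ctsh was at 9.83, 8.88, 7.33 and 7.10 CPM in NTG and 12.1, 24.8, 29.4, 24.7 and 24.4 CPM in APP/PS1 mice. Mouse 16 was far below the other 4 APP/PS1 mice but above all NTG mice, and the fitted difference was 2.79-fold (log2 fold change 1.48, SE 0.23, adjusted p = 0.00381). Cathepsin C removes dipeptides and activates serine proteases of immune cell granules. Ctsc was at 6.63, 9.21, 7.58 and 9.93 CPM in NTG and 14.8, 20.2, 21.7, 22.3 and 15.3 CPM in APP/PS1 mice, without overlap, and was 2.26-fold higher (log2 fold change 1.18, SE 0.17, adjusted p = 0.00219).

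Cathepsin D, the main aspartic protease of lysosomes, whose loss causes a neuronal ceroid lipofuscinosis, was encoded at 387, 363, 356 and 383 CPM in NTG and 787, 1073, 1002, 1387 and 1117 CPM in APP/PS1 mice. All 5 APP/PS1 mice were above 2 times the highest NTG mouse, and Ctsd was 2.88-fold higher (log2 fold change 1.53, SE 0.14, adjusted p = 0.000242). Cathepsin A is a serine carboxypeptidase that also holds beta-galactosidase and neuraminidase 1 in a stable complex. Ctsa was at 95.5, 95.4, 96.9 and 100.02 CPM in NTG and 139, 153, 145, 170 and 158 CPM in APP/PS1 mice, without overlap and 1.58-fold higher (log2 fold change 0.66, SE 0.06, adjusted p = 0.000242). Pltp and Neurl2, which overlap Ctsa on the other strand, had log2 fold changes of 0.21 (SE 0.13, adjusted p = 0.471) and 0.09 (SE 0.09, adjusted p = 0.678).

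Ctsf and Ctsk did not pass. Cathepsin F is a cysteine protease of lysosomes whose mutation causes an adult neuronal ceroid lipofuscinosis, and cathepsin K is best known as the collagen-degrading protease of osteoclasts. Ctsf was at 58.5, 51.8, 54.0 and 60.6 CPM in NTG and 48.5, 53.5, 53.4, 58.4 and 56.5 CPM in APP/PS1 mice (log2 fold change -0.06, 95% interval -0.20 to 0.09, adjusted p = 0.720). Ctsk was at 2.20, 2.47, 1.74 and 2.37 CPM in NTG and 2.34, 1.89, 2.43, 2.35 and 2.11 CPM in APP/PS1 mice (log2 fold change 0.02, 95% interval -0.27 to 0.32, adjusted p = 0.956). The groups overlapped for both genes, and the upper bounds of both intervals are below the log2 fold change of Ctsb, the smallest of those called. Ctss counts in a mouse were 29.2 to 44.1 times those of its neighbour Ctsk in NTG and 69.3 to 130 times in APP/PS1 mice.

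CP2-treated APP/PS1 mice were compared with vehicle-treated APP/PS1 mice to see what treatment changed. No cathepsin passed an adjusted p under 0.05, as was the case for all but 1 of 16407 genes (0.00609% called). Of the log2 fold changes of the members 9 of 10 were negative, with a median of -0.18 against -0.0060 over all genes tested. The members were measured in the same mice and varied together, so these are not separate results, and the shared direction was not tested. At an unadjusted p under 0.05 edgeR counted 1 member lower, Ctsb, where 3.66% of all genes were lower, DESeq2 counted 2 (4.10% of all genes) and limma-voom 3 (4.71%), all with 0 members past the adjusted threshold. No member was free of overlap between the groups, against 0.616% of all genes that were lower without overlap.

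In CP2-treated mice 21 to 25, Ctss was at 224, 247, 175, 164 and 146 CPM, so that mouse 22 lay within the range of vehicle-treated mice 17 to 20, mice 21, 23 and 24 lay between that range and mouse 16, and mouse 25 lay below mouse 16. Its log2 fold change was -0.32 (95% interval -0.69 to 0.06, adjusted p = 0.749). Ctsz was at 91.8, 96.7, 75.0, 67.2 and 60.9 CPM (log2 fold change -0.31, 95% interval -0.63 to 0.02, adjusted p = 0.744). Ctsd was at 1069, 1172, 838, 712 and 709 CPM (log2 fold change -0.26, 95% interval -0.63 to 0.12, adjusted p = 0.778). In these 3 genes mice 21 and 22 were above mice 23, 24 and 25, as they were in the other members except Ctsf. Ctsh was at 27.1, 20.9, 16.3, 14.3 and 17.7 CPM (log2 fold change -0.27, 95% interval -0.76 to 0.23, adjusted p = 0.817), and mouse 21 was its highest. Ctsl was at 120, 116, 101, 91.8 and 88.5 CPM, with a log2 fold change of -0.19 (95% interval -0.43 to 0.06, adjusted p = 0.757).

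Ctsb, at 741, 754, 696, 681 and 614 CPM under CP2, was the member with the smallest unadjusted p (0.0239 in edgeR's quasi-likelihood test) and did not pass after adjustment (log2 fold change -0.18, 95% interval -0.33 to -0.03, adjusted p = 0.744). Mice 21 to 23 were above mouse 16 and below the other vehicle-treated APP/PS1 mice. Ctsa was at 161, 156, 133, 131 and 123 CPM (log2 fold change -0.13, 95% interval -0.30 to 0.05, adjusted p = 0.768) and Ctsc at 23.0, 18.8, 15.1, 16.5 and 14.2 CPM (log2 fold change -0.11, 95% interval -0.45 to 0.23, adjusted p = 0.883). Ctsf was at 54.5, 57.9, 56.0, 54.1 and 53.2 CPM (log2 fold change 0.02, 95% interval -0.08 to 0.13, adjusted p = 0.921), and Ctsk at 2.26, 2.80, 1.66, 2.102 and 1.73 CPM (log2 fold change -0.08, 95% interval -0.41 to 0.25, adjusted p = 0.914). The intervals of 9 members include 0, and those of Ctss, Ctsd, Ctsz and Ctsh extend to values between -0.63 and -0.76.

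Single libraries moved these values. Mouse 16 was the lowest of the vehicle-treated APP/PS1 mice for 9 of 10 members, all but Ctsk, and mouse 19 the highest for 7. Without mouse 16 the number of members lower at an unadjusted p under 0.05 was 6 (Ctsb, Ctsl, Ctss, Ctsh, Ctsz and Ctsd), with 5.29% of all genes, the median log2 fold change was -0.24, and the smallest adjusted p was 0.410, for Ctsb. Mouse 25 was the lowest CP2-treated mouse for 8 members and mouse 22 the highest for 6. The unadjusted count was 0 without mouse 25 (2.54% of all genes lower) or without mouse 19 (3.46%), 3 without mouse 21 (3.51%) and 4 without mouse 22 (4.89%). The count past the adjusted threshold was 0 in each case.

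**Figure D3:**
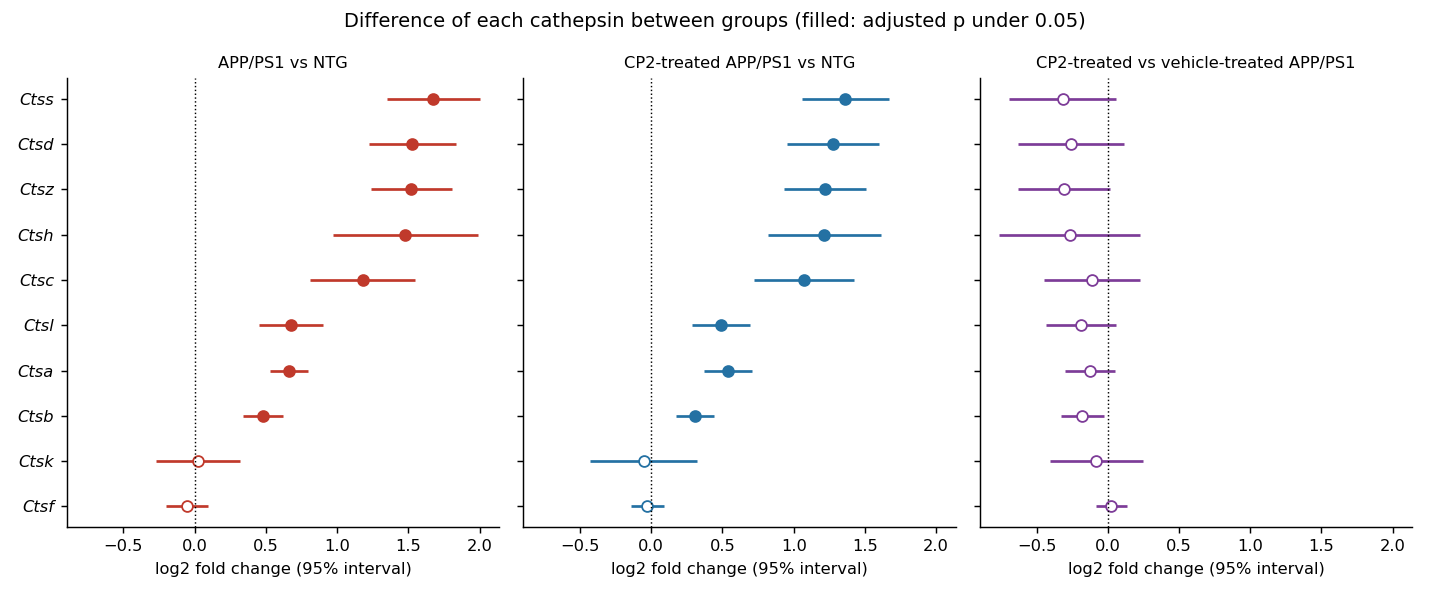
Log2 fold change of each cathepsin with its 95% interval in the 3 comparisons, on 1 common horizontal scale, with filled points for an adjusted p under 0.05. The same 8 genes are filled in both comparisons with NTG mice, and all points of the CP2 comparison are open.

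CP2-treated APP/PS1 mice were also compared with NTG mice, which serve in both comparisons with NTG. Ctss, Ctsd, Ctsz, Ctsh, Ctsc, Ctsa, Ctsl and Ctsb, 8 of 10 members, were called higher, with 4.56% of all 16416 genes called higher, and the same 8 had no overlap, against 6.41% of all genes. Ctss was 2.57-fold higher (log2 fold change 1.36, SE 0.14, adjusted p = 0.000365) and Ctsd 2.42-fold higher (log2 fold change 1.27, SE 0.15, adjusted p = 0.000620). Ctsz (2.33-fold), Ctsh (2.32-fold) and Ctsc (2.103-fold) followed. Ctsa was 1.45-fold, Ctsl 1.40-fold and Ctsb 1.24-fold higher, and the adjusted p of Ctsb was 0.0119 (edgeR's quasi-likelihood test). Ctsf (log2 fold change -0.03, 95% interval -0.14 to 0.09, adjusted p = 0.823) and Ctsk (log2 fold change -0.05, 95% interval -0.43 to 0.32, adjusted p = 0.902) did not pass. The median over the members was 0.81 against -0.0015 over all genes.

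Of the other cathepsin genes, 12 were listed and 2 were abundant enough to test. Ctse, an aspartic protease of endosomes, was at 0.546 ± 0.387 CPM in NTG and 2.76 ± 1.82 CPM in APP/PS1 mice without overlap, and did not pass after adjustment (log2 fold change 2.34, SE 0.63, adjusted p = 0.0620 with edgeR), whereas DESeq2 called it (adjusted p = 0.00182). Ctso, a cysteine protease, had a log2 fold change of 0.19 (SE 0.07, adjusted p = 0.179). Without mouse 16 Ctso was called higher (log2 fold change 0.23, edgeR adjusted p = 0.0478), and Ctse had a log2 fold change of 1.85 (adjusted p = 0.0556). The CP2 comparison called 0 of these 2 genes with edgeR or DESeq2, and Ctso was at an unadjusted p under 0.05.

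Among cathepsin inhibitors, Cst7 had the largest difference of all the pathway genes tested. Of 9 listed genes, 6 were tested and 4 were called higher in APP/PS1 than in NTG mice. Cst7 encodes cystatin F, which is carried to lysosomes of immune cells and inhibits cathepsin C and related enzymes, and it went from 0.643 ± 0.255 CPM (n = 4) to 32.3 ± 10.4 CPM (n = 5), with a log2 fold change of 5.62 (SE 0.36, edgeR adjusted p = 8.12e-05). Cst3, the secreted cystatin C, was much more abundant and went from 1112 ± 64.6 to 1457 ± 148 CPM (log2 fold change 0.39, SE 0.08, adjusted p = 0.0190). Ctla2a and Ctla2b, which resemble the propeptide of cathepsin L-like enzymes, had log2 fold changes of 0.75 (SE 0.12, adjusted p = 0.00403) and 1.49 (SE 0.26, adjusted p = 0.00821). Cstb, the cytosolic stefin B, had a log2 fold change of 0.01 (SE 0.13) and Cst6 one of -0.13 (SE 0.17), and neither passed. Under CP2 all 6 log2 fold changes were negative, from -0.42 to -0.17, and 0 passed after adjustment with edgeR or DESeq2, with Ctla2a the 1 gene at an unadjusted p under 0.05, and 2 others, Cst7 and Ctla2b, without mouse 16.

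Of 7 genes that process or accompany cathepsins, 1 was called. Lgmn, the asparagine endopeptidase that matures several cathepsins, was higher in APP/PS1 mice (137 ± 13.4 against 101 ± 3.42 CPM, log2 fold change 0.45, SE 0.07, edgeR adjusted p = 0.00506). Glb1 and Neu1, the partners of cathepsin A, had log2 fold changes of 0.28 (SE 0.09, adjusted p = 0.120) and 0.03 (SE 0.05, adjusted p = 0.787). Psap, Tpp1, Dpp7 and Grn did not pass either, with Grn, which encodes progranulin, at 0.62 (SE 0.22, adjusted p = 0.150). Without mouse 16 this group had 4 of 7 genes called higher, and DESeq2 called Grn, Glb1 and Dpp7 besides Lgmn with all mice. In the CP2 comparison 0 of these 7 genes were at an unadjusted p under 0.05 with edgeR. Without mouse 16 there were 2, both lower and neither past the adjusted threshold. They were Grn (log2 fold change -0.47, edgeR unadjusted p = 0.00676) and Lgmn (log2 fold change -0.17, edgeR unadjusted p = 0.0263). The 7 sorting genes, among them the mannose 6-phosphate receptors Igf2r and M6pr and the tagging enzyme Gnptab, had log2 fold changes from -0.11 to 0.28 and 0 were called by edgeR, with 2 at an unadjusted p under 0.05 and 3 without mouse 16, while DESeq2 called 1, Nagpa (adjusted p = 0.0172). Of the transcription factors of lysosomal genes, Tfeb, Tfe3 and Mitf were tested, with log2 fold changes of 0.15, 0.12 and 0.22, and 0 of the 3 passed at an adjusted or an unadjusted p under 0.05 with edgeR or at an adjusted p under 0.05 with DESeq2. Without mouse 16 edgeR had 1 of the 3, Mitf, at an unadjusted p under 0.05 (log2 fold change 0.28, adjusted p = 0.114).

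Cd74, the invariant chain that cathepsin S cuts, rose from 7.66 ± 1.96 CPM in NTG to 29.2 ± 15.0 CPM in APP/PS1 mice (log2 fold change 1.93, SE 0.36, edgeR adjusted p = 0.0117). Ifi30, a thiol reductase of the same compartment, rose with a log2 fold change of 0.78 (SE 0.18, adjusted p = 0.0346). Under CP2 Cd74 was at 19.1 ± 3.74 CPM, with a log2 fold change against vehicle-treated APP/PS1 mice of -0.62 (95% interval -1.28 to 0.04, adjusted p = 0.744). Without mouse 16 it was -0.77 (edgeR unadjusted p = 0.0169, adjusted p = 0.478).

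**Figure D4:**
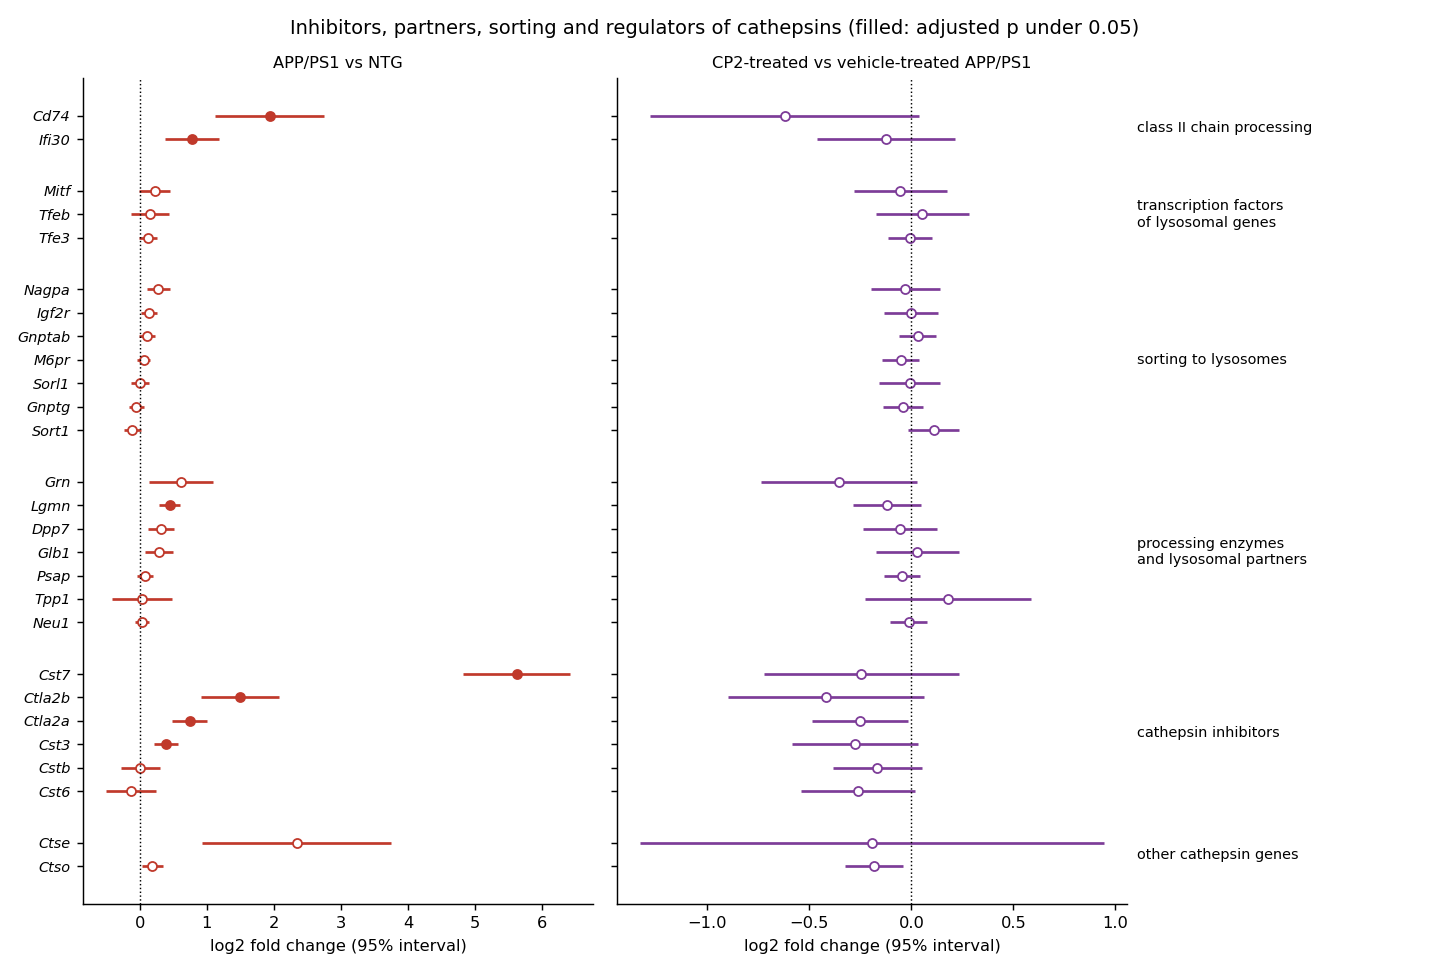
Log2 fold changes with 95% intervals of the tested genes of 6 lists, for APP/PS1 against NTG mice on the left and for CP2 against vehicle on the right, on different horizontal scales, with filled points for an adjusted p under 0.05. On the left 7 genes are filled, Cst7 farthest from 0, and on the right none is.

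Markers of microglia moved in the same direction as most cathepsins between the groups. Of 9 markers, 7 were called higher in APP/PS1 than in NTG mice and 9 without mouse 16, and their median log2 fold change was 0.97 beside the 0.93 of the members. Their summed level was 369 to 388 CPM in NTG, 663 to 880 CPM in APP/PS1 and 554 to 823 CPM in CP2-treated APP/PS1 mice. In the CP2 comparison all 9 markers had a log2 fold change below 0, with a median of -0.15, and 0 were called by edgeR or DESeq2, or at an unadjusted p under 0.05 by edgeR. Mice 21 and 22, which between them were the highest for all 10 cathepsins under CP2, had the highest microglia sums of that group (814 and 823 CPM). Single mice matched less well among vehicle-treated APP/PS1 mice. Mouse 16 had the lowest microglia sum (663 CPM) and was lowest for 9 cathepsins. Mice 19 and 20 both had 880 CPM, and mouse 19 was highest for 7 cathepsins but mouse 20 for none. Mouse 18, at 682 CPM, was highest for 3. Astrocyte markers summed to 3722 to 4315 CPM in NTG and 4072 to 5714 CPM in APP/PS1 mice, with 1 of 5 called higher and 1 lower, and 2 higher and 1 lower without mouse 16. With all mice Gfap was the one called higher (log2 fold change 2.30, SE 0.25, edgeR adjusted p = 0.000649). Slc1a2 was the one called lower (log2 fold change -0.41, SE 0.10, adjusted p = 0.0442). In the CP2 comparison Gfap had a log2 fold change of -0.22 (edgeR adjusted p = 0.851), and 3 of the 5 astrocyte markers were below 0 and 2 above. Markers of perivascular and meningeal macrophages summed to 11.3 to 15.2 CPM in NTG and 13.8 to 19.03 CPM in APP/PS1 mice, with 0 of 3 tested called by edgeR and 1, Cd163, at an unadjusted p under 0.05 and by DESeq2, and without mouse 16 edgeR again called 0 and had 2 at an unadjusted p under 0.05. In the CP2 comparison 0 of these 3 were called. Cd163 was lower there (log2 fold change -0.66, edgeR unadjusted p = 0.0228, adjusted p = 0.744), while Mrc1 was at 0.15 and F13a1 at -0.04. Without mouse 16 Cd163 was at -0.47 (edgeR unadjusted p = 0.0591). Lymphocyte markers summed to at most 1.55 CPM and neutrophil markers to at most 7.41 CPM in any mouse, and none of either list was abundant enough to test. Of 4 endothelium markers, 1, Pecam1, was called higher in APP/PS1 than in NTG mice (log2 fold change 0.40, SE 0.07, edgeR adjusted p = 0.00965). In CP2-treated APP/PS1 against NTG mice 3 were called higher, and in the CP2 comparison 0 were called. Cldn5 had log2 fold changes of -0.06 and -0.12 in the 2 comparisons with NTG mice. The part of these cells in the cathepsin levels was not tested.

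**Figure D5:**
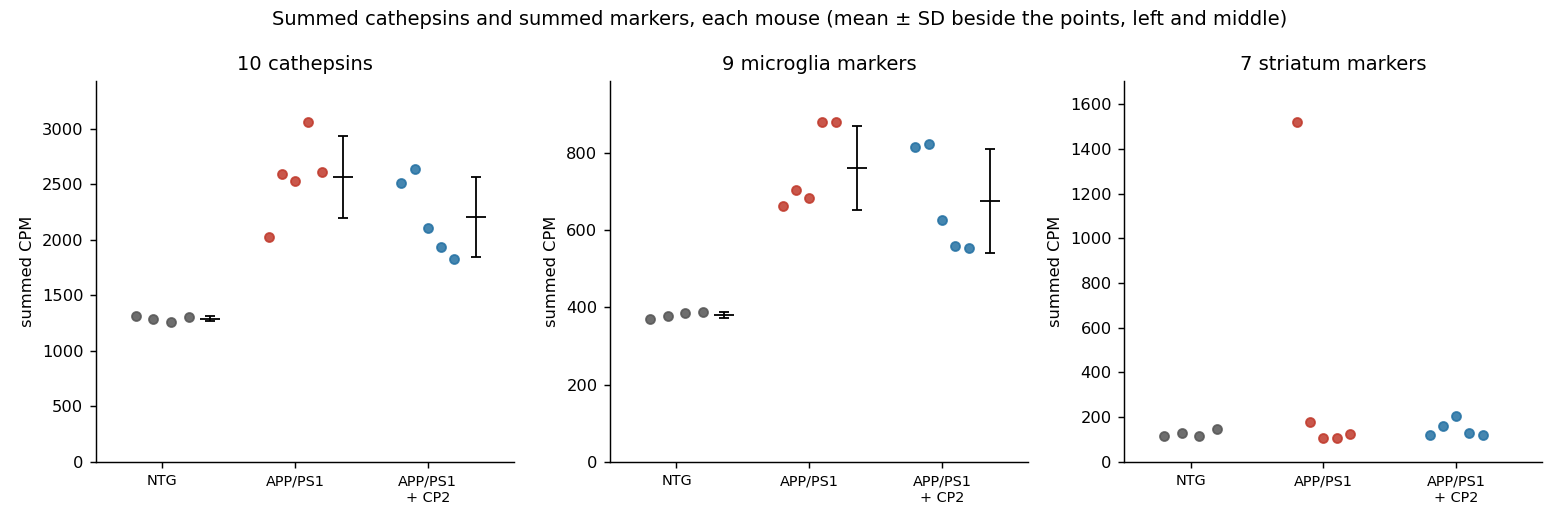
Summed CPM in each mouse of the 10 cathepsins, of 9 microglia markers and of 7 striatum markers, with the group mean and SD beside the points for the first and second panel. Cathepsins and microglia markers are both lowest in the 4 NTG mice, and mouse 16 stands alone in the third panel at 1522 CPM.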

How the data were processed

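The authors sequenced TruSeq libraries (RNA Library Prep Kit v2) with paired ends, aligned reads to mm10 with TopHat2 and used FeatureCounts with Ensembl gene models, where a read adds to every gene it touches. The deposited table gives read counts without normalization and RPKM values per gene computed by the authors, which were used only to compare levels between genes. Aligner version and strand setting are not given in the sources used here. Counts were scaled with TMM factors (0.953 to 1.03) to CPM. Each comparison was fitted on its 2 groups with edgeR 4.0.16 (glmQLFit, glmQLFTest, R 4.3.3) and Benjamini-Hochberg adjustment over all genes with a robust CPM above 1 in all mice of 1 or more groups, after the study's script. SEs are those implied by the test. The fits were also run on simulated counts with the same dispersion for all genes and no outlying mouse. That setting differs from the data, so it does not show how the fits behave here. Alternatives were DESeq2 1.42.0, limma 3.58.1 (voom with sample weights), RLE or upper-quartile factors, no filter, a minimum of 10 counts per mouse, a joint fit of the 3 groups, the ribosomal RNA-like share of the library (2.40 to 7.50%) as a covariate, and each mouse left out; lists without mouse 16 were added after seeing the data. Genes named are the 10 members and genes of the pathway and marker lists, chosen with earlier results of these data known, plus genes overlapping a member and App. Of the list of processing enzymes and partners, 1 gene is not reported here.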

Additional observations from a re-analysis of the deposited data

Results flagged for a closer look

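Of 30 sets of values examined (10 cathepsins in 3 groups of 4 or 5 mice), 1 had a mouse far from the rest of its group. Ctsh in APP/PS1 mouse 16 was at 12.1 CPM, and its distance to the next mouse was 0.715 of the whole range of the group, against a limit of 0.710 for 5 samples. Chance flags about 1 in 20 such groups. This is the mouse whose striatum markers summed to 1522 CPM and which was lowest for 9 of 10 cathepsins in its group, and the part of the dissected tissue in this value was not tested. Without it, Ctsh was still called higher in APP/PS1 than in NTG mice, with a log2 fold change of 1.64 against 1.48 with all mice, and its log2 fold change under CP2 was -0.43 (edgeR unadjusted p = 0.0203, adjusted p = 0.485) against -0.27 with all mice.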

How the results depend on the processing

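In both comparisons with NTG mice 8 of 10 cathepsins were called under every alternative and with each mouse left out. Called members kept an adjusted p of at most 0.0194 against vehicle-treated APP/PS1 mice (Ctsh without NTG mouse 9) and at most 0.0465 against CP2-treated mice (Ctsb without NTG mouse 10). With CP2 the count of 0 became 1 when an unadjusted p under 0.05 was the criterion, and between 0 and 6 by that criterion with each mouse left out. Members that were not called changed sign in 3 cases, with no call. Ctsf under CP2 (0.02) reached -0.04 with the ribosomal RNA-like covariate and was also below 0 without mouse 16. Ctsk against NTG (0.02) reached -0.07 and was below 0 without NTG mouse 9 or APP/PS1 mouse 18. Ctsk in CP2-treated against NTG mice (-0.05) reached 0.02 and was above 0 without mouse 8, 23 or 25. Shares of summed counts in place of RPKM moved all 30 shares, since they do not divide by length. The other members kept direction and side of the adjusted threshold. Among lists, mouse 16 moved counts of calls in APP/PS1 against NTG (a setting chosen after seeing the data). Without it 4 in place of 1 of the processing enzymes and partners, 9 in place of 7 microglia markers, 1 in place of 0 other cathepsins and 2 in place of 1 astrocyte markers were called higher, and 1 in place of 0 neuron markers lower. Limits are 4 or 5 mice a group, overlapping exons of Ctsa, Ctsb, Ctsd and Ctsz, and tissue of mixed cells. No paired analysis was run, because each mouse was in 1 group only and its litter and cage are not given in the sources used here.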
